A study of Mus musculus with 8 samples.

Results

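The genes described here encode the nuclear subunits of the mitochondrial respiratory chain, complexes I to V, and the few assembly factors and relatives that share their names. Members were the non-control probes whose gene name on the array starts with Nduf, Uqcr, Atp5 or Cox4 to Cox8, or is Sdha, Sdhb, Sdhc or Sdhd. This gave 146 of 56605 probes, for 94 genes. Of these, 93 genes passed the filter on dim probes among 22368 genes tested, and 80 of the 93 encode structural subunits. Cox8c, a testis isoform of a complex IV subunit, was the gene left out: its probe lay well above background on 0 of 8 arrays. Of the 93 genes, 92 lay well above background on all 8 arrays, against 86.1% of all genes tested.

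RNA came from kidney of male mice aged 20 weeks, with 8 samples, 2 in each of 4 groups. Normal mice had the strain label C57BLKS/J Iar -m+/m+. All other mice had the label C57BLKS/J Iar -+Leprdb/+Leprdb; these db/db mice carry a mutant leptin receptor on both chromosomes and become obese and diabetic. They were left untreated, were given nanoparticles labelled PEI with a control miRNA, or were given such particles with a mimic of miR-181b-5p. The labels of normal and db/db mice differ in the symbol m as well as in Leprdb, so comparisons with normal kidney cover both. The nanoparticle groups have no normal counterpart, so the mimic was read only on the db/db background. The study asked what the mimic changes in diabetic kidney. The sources used here give no dose, route or schedule. The mature miRNA that the mimic copies, from RefSeq, is shown to identify the treatment, with its seed, bases 2 to 8, in capitals.

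mmu-miR-181b-5p: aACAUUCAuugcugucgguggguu

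The respiratory chain passes electrons from NADH (complex I) and succinate (complex II) through complex III to oxygen at complex IV, and the proton gradient this builds drives ATP synthase, complex V. Most subunits are encoded in the nucleus, and a small set in mitochondrial DNA. Kidney tubules, above all the proximal tubule, depend on this chain to power the reabsorption of salt and solutes. Several complex IV subunits come in a ubiquitous form and a form of heart and skeletal muscle, lung, brown fat or testis.

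The promoters of these genes are known for sites of the nuclear respiratory factor NRF1 and of ETS-family factors. RefSeq promoter windows of GRCm38.p6 (250 bases before to 50 after the start) matched 77 of the 94 genes, with 83 windows. The NRF1 motif (GCGCA, any base, then GCGC) stood on either strand in 24.1% of member windows and in 4.6% of all 32851 windows. CCGGAAG (ETS) stood in 21.7% against 8.86%, and AAGATGGCG (YY1) in 12% against 1.4%. GGGCGG (SP1) stood in 43.4% against 35.7%. TATAAA stood in 9.64% against 13.6%, and CAGCTG, an E-box, in 7.23% against 16.3%. Member windows were also richer in G and C, with a median of 58.3% against 52.7%. Among 127 matches in member windows, 1 pair of different motifs overlapped. The windows of ubiquitous Cox6a1, Cox6b1 and Cox8a and of the tissue isoforms Cox6b2 and Cox8b are shown because these isoforms gave some of the largest differences among members. They run 5′ to 3′ from 250 bases before the start to 30 after it, with matches to any of the 6 motifs in capitals.

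Cox6a1, chr5:115348929-115349208, strand -: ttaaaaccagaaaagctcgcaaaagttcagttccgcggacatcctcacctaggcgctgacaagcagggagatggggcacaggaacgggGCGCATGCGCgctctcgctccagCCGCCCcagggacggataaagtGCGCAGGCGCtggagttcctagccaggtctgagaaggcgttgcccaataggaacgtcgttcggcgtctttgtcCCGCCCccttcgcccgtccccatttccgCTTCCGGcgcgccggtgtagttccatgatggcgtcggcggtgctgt
Cox6b1, chr7:30626085-30626364, strand -: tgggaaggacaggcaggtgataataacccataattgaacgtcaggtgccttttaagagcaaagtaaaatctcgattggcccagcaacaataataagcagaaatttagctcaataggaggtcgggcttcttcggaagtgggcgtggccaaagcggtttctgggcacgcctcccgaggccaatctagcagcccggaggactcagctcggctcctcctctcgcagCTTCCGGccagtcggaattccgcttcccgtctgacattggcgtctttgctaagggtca
Cox8a, chr19:7217587-7217866, strand -: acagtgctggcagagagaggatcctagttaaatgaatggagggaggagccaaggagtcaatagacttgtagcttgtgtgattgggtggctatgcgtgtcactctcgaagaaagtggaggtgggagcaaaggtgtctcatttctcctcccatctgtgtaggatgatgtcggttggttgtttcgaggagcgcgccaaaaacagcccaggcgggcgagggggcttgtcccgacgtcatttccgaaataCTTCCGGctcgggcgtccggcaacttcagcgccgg
Cox6b2, chr7:4753065-4753344, strand -: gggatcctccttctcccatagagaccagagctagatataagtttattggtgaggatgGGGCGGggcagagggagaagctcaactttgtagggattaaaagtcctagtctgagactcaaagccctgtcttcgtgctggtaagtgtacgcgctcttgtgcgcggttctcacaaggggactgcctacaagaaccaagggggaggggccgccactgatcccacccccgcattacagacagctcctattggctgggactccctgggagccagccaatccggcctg
Cox8b, chr7:140900417-140900696, strand -: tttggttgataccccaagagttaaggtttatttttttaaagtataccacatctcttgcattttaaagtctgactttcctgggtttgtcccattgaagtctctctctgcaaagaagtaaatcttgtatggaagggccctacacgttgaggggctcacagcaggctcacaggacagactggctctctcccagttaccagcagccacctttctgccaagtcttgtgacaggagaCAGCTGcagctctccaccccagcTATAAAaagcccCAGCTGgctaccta

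Cox6a1 held 2 NRF1, 1 ETS and 2 SP1 matches, and Cox6b1 and Cox8a each held 1 ETS match in the stretch shown. Cox6b2 held 1 SP1 match, while Cox8b held 1 TATAAA and 2 E-box matches. These are matches of letters only.

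All values below are log2 levels of array intensity, where 0 is the 75th percentile of that array, and a gene is read by its brightest probe. Levels of different probes are not set against each other, but summed levels of marker lists add them on the linear scale, so the brightest gene weighs most. Group differences were tested with limma across all 22368 genes, and the threshold for a gene to pass was a Benjamini-Hochberg adjusted p of 0.05. With 2 arrays a group, the smallest two-sided p of an exact permutation test is 0.333, so the p-values here rest on variances shared between genes. The share of spots well above background was 56.5% to 62.5%. Replicates correlated at r = 0.992 (normal), 0.997 (untreated), 0.995 (control miRNA) and 0.976 (mimic), and mimic replicate 1 stood apart. All arrays lay on 1 slide. Normal and control-miRNA arrays filled columns 1 and 2 and untreated and mimic arrays columns 3 and 4, with the nanoparticle groups in the other row, so place and group cannot be told apart. All 10 proximal tubule markers lay well above background on all 8 arrays.

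Most subunit genes read slightly higher in untreated db/db kidney than in normal kidney, although 0 member genes passed the test in that comparison. The difference was above 0 for 83 of 93 members, against 45.5% of all genes. Its median over the 80 subunit genes was 0.19, a 1.14-fold difference, against -0.04 over all genes. With the background at 3.5% of genes passing by limma, no member stood among the 783 genes that did. At an unadjusted p under 0.05 there were 16 members (17.2%), against 24.7% of all genes. Of these 16, 15 were higher, which is 16.1% of members against 9.8% of all genes. Both untreated arrays lay above both normal arrays for 54 members (58.1%, background 28.3%) and below for 3 (background 35%). At least 2-fold differences were seen for 4 members, or 4.3%, against 7.43% of all genes. These counts are a description, with no test over the set.

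Normal replicate 1 was the lowest array for most members, and this touches every comparison with normal kidney. The median deviation of the 80 subunit genes from their own means was -0.21 and -0.03 in the normal mice, 0.07 and 0.07 in untreated db/db mice, 0.02 and 0.07 with control miRNA, and -0.10 and 0.11 with the mimic. Normal replicate 1 lay below normal replicate 2 for 87 members (background 54.5%) and was the lowest of all 8 arrays for 58 (background 18.2%). Without it the median untreated difference was 0.0847, and without normal replicate 2 it was 0.267. Normal replicate 1 had the highest level of 3 of 6 white-fat genes and 5 of 6 urothelium genes. The exceptions were Lep, Plin1 and Lipe, and Krt5. The summed white-fat level there was 41.9 and on normal replicate 2 it was 2.91, against 0.524 to 2.61 on the db/db arrays. The summed urothelium level was 12.3 and 3.38 in normal mice, against 0.941 to 6.00 on the db/db arrays. Other marker lists differed between untreated and normal kidney too. Summed red-cell markers were 86.7 and 129 in untreated mice against 7.61 and 11.8 in normal mice. Distal convoluted tubule markers were 144 and 124 against 41.2 and 52.8, and podocyte markers 23.4 and 20.9 against 11.6 and 12.3. Macrophage markers were 6.91 and 7.14 against 17.4 and 15.9. Hba-a1, Calb1 and Cfd weigh most in the red-cell, distal convoluted tubule and white-fat sums. Slc4a1 of the red-cell list read 1.24 and 1.48 against 1.48 and 1.03. The median log2 differences of the lists were 3.71 (red cell), 0.72 (distal convoluted tubule), 1.24 (podocyte) and -1.26 (macrophage). The part of these markers in the shift was not tested, and in whole kidney fewer cells of a type and less RNA per cell cannot be told apart.

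**Figure D1:**
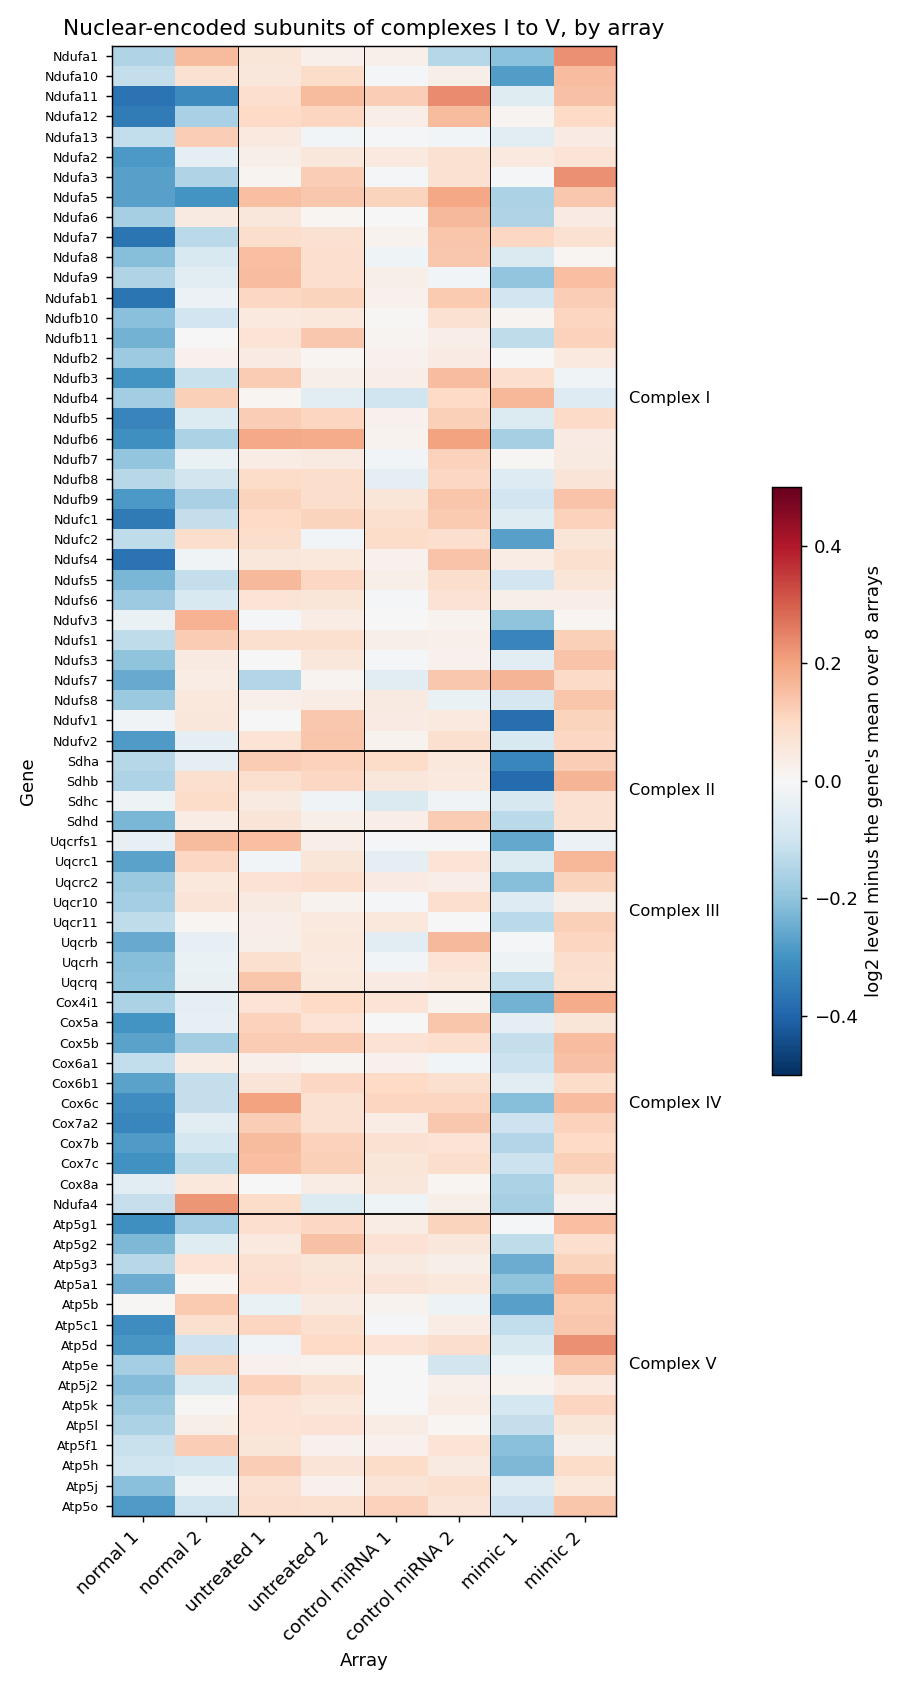
Map of 73 subunit genes (rows, grouped by complex; the 6 tissue isoforms are among those left out) over the 8 arrays (columns), where colour is the log2 level minus the gene's own mean over the 8 arrays. The normal replicate 1 column is the most uniformly blue (low), with a median of -0.21 over all 80 subunit genes, and mimic replicate 1 is the next lowest at -0.10.

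Complex I oxidises NADH at a catalytic core that its accessory subunits surround. The accessory median was 0.22 in untreated db/db minus normal kidney over 29 genes, against 0.08 over the 7 core subunits measured. At an unadjusted p under 0.05 there were 8 of the 36 complex I subunits (22.2%) and 8 of the 29 accessory ones (27.6%), against 24.7% of all genes: Ndufa5, Ndufa7, Ndufa11, Ndufa12, Ndufb6, Ndufb9, Ndufc1 and Ndufs5. All 6 db/db arrays lay above both normal arrays for 27 members (29%, background 14%) and below both for 0 (background 20.1%). Accessory subunits of complex I made up 16 of these 27. They included Ndufa2, Ndufa3, Ndufb3 and Ndufs4 beside most of the genes just named.

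Ndufa11, a membrane-arm subunit, differed most within complex I. Its levels were 2.91 and 2.96 in normal mice, 3.36 and 3.43 in untreated mice, 3.40 and 3.51 with control miRNA, and 3.21 and 3.42 with the mimic. All 6 db/db arrays lay above both normal arrays. The untreated difference was 0.46 (SE 0.124, 1.38-fold; limma adjusted p = 0.0915), with a 95% interval from 0.16 to 0.77 before adjustment. Ndufa5, a subunit of the matrix arm, read 6.98 and 6.96, then 7.40 and 7.39, 7.37 and 7.45, and 7.10 and 7.39 in the same order of groups. Its lowest db/db value, on mimic replicate 1, was still above both normal values, and the untreated difference was 0.43 (limma adjusted p = 0.121). Its second probe gave 0.50.

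Without mimic replicate 1, the within-group spread of the mimic no longer entered the shared variance, and 3 members passed in untreated against normal kidney. They were Ndufa11 (limma adjusted p = 0.0397), Ndufa5 (0.0428) and the Ndufa4 relative Ndufa4l2 (0.0228), with unchanged differences. The background rose to 14.9% of genes, against 3.23% of members. The same 3 genes passed in control-miRNA against normal kidney, at 0.0352, 0.0472 and 0.0314, where 11.4% of genes passed. Leaving out mimic replicate 2 in its place gave the same 3 calls in both comparisons.

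By the brightest probes, the core of complex I gave smaller values. Ndufv1, which binds NADH, read 6.67 and 6.75 in normal mice and 6.69 and 6.83 in untreated mice. Ndufs1, an iron-sulphur subunit, read 5.54 and 5.79 against 5.75 and 5.75. The groups overlap for both genes, and their 95% intervals ran from -0.38 to 0.48 and from -0.35 to 0.51. A difference of 0.22, the accessory median, lies within both. By their second probes the untreated differences were 0.37 and -0.45, so for these genes the contrast with accessory subunits depends on the probe. The second Ndufs1 probe was dim, at a mean level of -4.29, near the lowest levels counted as well above background, -5.36 to -4.87. Among complex I assembly factors, Ndufaf5 gave 0.43 (adjusted p = 0.123) and Ndufaf6 gave the lowest value of any complex I member, -0.12 (adjusted p = 0.721). The 9 assembly factors had a median of 0.03.

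Complex II, succinate dehydrogenase, joins the citric acid cycle to the chain. Sdha, the flavoprotein, read 5.88 and 5.97 in normal mice, 6.15 and 6.13 in untreated mice, 6.11 and 6.07 with control miRNA, and 5.69 and 6.14 with the mimic. Untreated values lay above normal ones, while mimic replicate 1 was the lowest of the 8 arrays. The iron-sulphur subunit Sdhb had the same low array: 7.31 and 7.55, 7.55 and 7.57, 7.52 and 7.52, and 7.08 and 7.64. Untreated differences were 0.22 for Sdha (adjusted p = 0.465) and 0.13 for Sdhb. The membrane anchor Sdhc was at -0.02 (adjusted p = 0.933), and this value was 0.0305 after normexp background correction and 0.0182 in the authors' deposited table.

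Complex III passes electrons from quinol to cytochrome c. Its 8 subunits were all above 0 in untreated minus normal kidney, from 0.03 for Uqcrfs1, the Rieske iron-sulphur protein, to 0.22 for the small subunit Uqcrq (adjusted p = 0.908 and 0.354). Uqcrfs1 read 6.32 and 6.52 in normal and 6.51 and 6.39 in untreated mice, and after quantile normalization its difference was -0.0413. Uqcrc1, a core protein, read 5.94 and 6.31 against 6.19 and 6.27. Normal replicate 1 was the low value of each normal pair, and both genes' groups overlap.

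Complex V makes ATP, and 14 of its 15 subunits were above 0, with a median of 0.19. Atp5g1, 1 of 3 genes for the same mature subunit of the rotor ring, read 7.01 and 7.15 in normal mice, 7.41 and 7.42 in untreated mice, 7.36 and 7.43 with control miRNA, and 7.31 and 7.47 with the mimic. Its db/db values all lay above its normal values, by 0.33 in untreated mice (adjusted p = 0.159). The partner genes Atp5g2 and Atp5g3 differed by 0.24 and 0.10. In the catalytic head, Atp5a1 differed by 0.19, Atp5c1 by 0.21 and Atp5b, the catalytic subunit, by -0.06 (adjusted p = 0.845). Atp5b read 8.63 and 8.75 against 8.59 and 8.66, and its sign was positive after quantile normalization (0.162) and over the mean of its probes (0.165). The pseudogene Atp5c1-ps gave the highest complex V value, 0.38 (adjusted p = 0.276); it resembles Atp5c1, so its probe may read both.

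Complex IV reduces oxygen to water. Its ubiquitous subunits had a median of 0.28 over 11 genes, and 10 of the 11 were above 0. Cox5b read 6.63 and 6.73 in normal mice, 7.03 and 7.03 in untreated mice, 6.97 and 6.98 with control miRNA, and 6.78 and 7.06 with the mimic. The db/db values all lay above the normal ones, with an untreated difference of 0.35 (adjusted p = 0.171). Cox7b (0.32), Cox7a2 (0.29), Cox6b1 (0.28), Cox5a (0.26) and Cox4i1 (0.185) read in the same direction, while Cox6a1 (0.06), Cox8a (0.02), the supercomplex factor Cox7a2l (0.05) and Ndufa4 (-0.04) lay near 0. Normal values of Ndufa4, long counted with complex I and found in complex IV, were 6.28 and 6.62, and untreated ones 6.49 and 6.33.

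**Figure D2:**
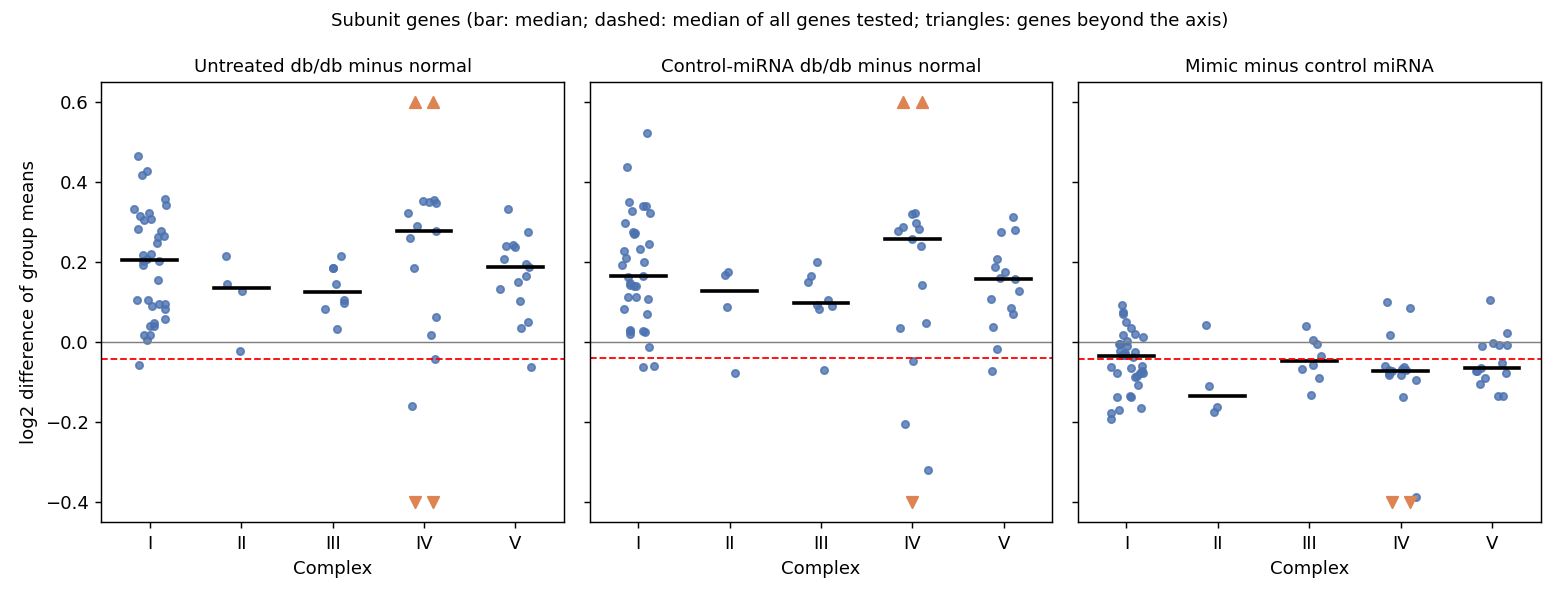
Differences of group means (log2) for the 80 subunit genes by complex in 3 comparisons, where each point is a gene, black bars are medians, the dashed line is the median of all genes tested, and triangles mark genes beyond the axis. In untreated minus normal kidney the medians lie between 0.13 and 0.28, above the all-gene median of -0.04, and in mimic minus control miRNA they lie between -0.14 and -0.03.

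The 4 members with differences of at least 2-fold were tissue isoforms of complex IV, with Cox6a2 and Cox6b2 higher and Cox8b and Cox7b2 lower in untreated db/db kidney, none past the threshold. Cox6a2, the heart and skeletal muscle form of subunit VIa (probe at chr7:135349160-135349219, mm9), read -1.36 and -1.37 in normal mice, 0.90 and 0.73 in untreated mice, 1.53 and -0.44 with control miRNA, and -0.49 and 1.42 with the mimic. All 6 db/db values lay above both normal ones, but replicates of the nanoparticle groups lay about 2 log2 units apart. The untreated difference was 2.18 (SE 0.785, 4.53-fold; limma adjusted p = 0.159), and it passed only in the fit to the 4 arrays compared (adjusted p = 0.00687). The ubiquitous partner Cox6a1 differed by 0.06.

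Cox6b2, known as the testis form of subunit VIb (probe at chr7:4703488-4703547, mm9), read -0.63 and -0.52 in normal mice, 0.54 and 0.74 in untreated mice, 0.29 and 1.90 with control miRNA, and 1.31 and 1.09 with the mimic. Again all 6 db/db values were above both normal ones. The untreated difference was 1.21 (SE 0.476, 2.32-fold; limma adjusted p = 0.186). Under the alternatives run it passed in the fit to 4 arrays (0.0164) and without either control-miRNA array (0.0492 each). Its mimic difference from normal kidney was 1.77 (adjusted p = 0.0699). Of 10 striated muscle genes, 6 lay well above background on all 8 arrays and 2, Ckm and Mb, on 0 arrays. The list's summed level was 0.926 and 0.734 in normal mice and 0.614 to 0.718 in db/db mice, and the part of muscle markers in the values of Cox6a2 and Cox6b2 was not tested. Of 3 testis and sperm genes, 1 passed the filter.

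Cox8b, the form of subunit VIII in heart, skeletal muscle and brown fat (probe at chr7:148084852-148084911, mm9), was high on a single array. It read 1.90 and -2.74 in normal mice, -4.37 and -4.27 in untreated mice, -3.49 and -2.43 with control miRNA, and -4.17 and -4.29 with the mimic. Normal replicate 1 stood over 4 log2 units above all others. The untreated difference was -3.90 (SE 1.35; limma adjusted p = 0.149). It was -1.58 without normal replicate 1, and -6.21 (adjusted p = 0.0419) without normal replicate 2. The same array was the highest for 5 of 7 brown-fat genes, the exceptions being Cpt1b, highest on mimic replicate 2, and Otop1, lowest on normal replicate 1. Ucp1, the uncoupling protein, was well above background on 1 array, normal replicate 1, at 0.83, and Cidea read 2.85 and -2.26 in normal mice and between -4.47 and -3.18 in db/db mice. The white-fat gene Cfd read 5.25 and 1.10 in normal mice and at most 0.64 in db/db mice. The summed brown-fat list was 10.1 on that array and 0.954 to 1.27 on the other 7, and Elovl3 lay well above background on 0 arrays. The part of fat in the Cox8b values was not tested.

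**Figure D3:**
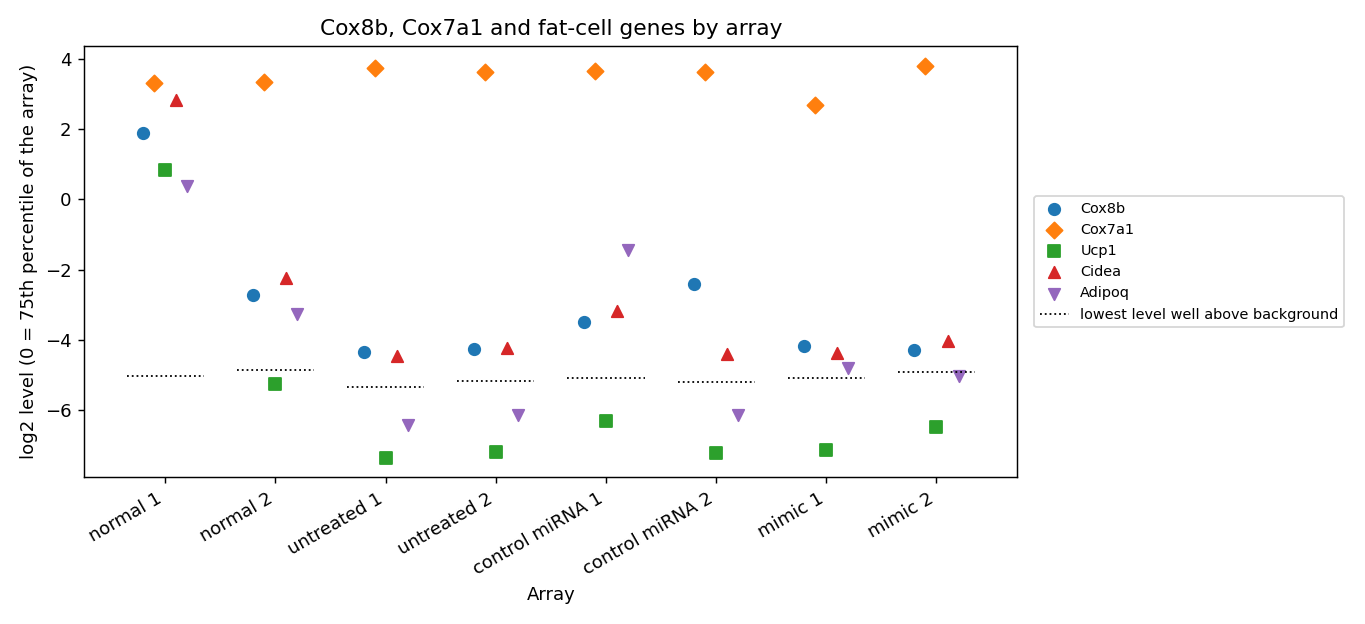
Log2 levels of Cox8b, Cox7a1 and the fat-cell genes Ucp1, Cidea and Adipoq on each of the 8 arrays (dotted lines: the lowest level that counted as well above background on that array). Cox8b, Ucp1, Cidea and Adipoq are all highest on normal replicate 1 (1.90, 0.83, 2.85 and 0.39), and Cox7a1 is lowest on mimic replicate 1 (2.71).

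Cox7a1, the heart and muscle form of subunit VIIa, read 3.32 and 3.34 in normal mice, 3.74 and 3.63 in untreated mice, 3.66 and 3.64 with control miRNA, and 2.71 and 3.82 with the mimic. All but mimic replicate 1 of the db/db arrays lay above the normal ones, and the untreated difference was 0.36 (adjusted p = 0.553). With mimic replicate 1 as the lone mimic array, the mimic value against control miRNA was -0.94 (adjusted p = 0.00868), against -0.39 with both arrays. Cox4i2, the lung form of subunit IV, read -1.03 on both normal arrays and -1.15 and -1.23 in untreated mice (-0.16; adjusted p = 0.518). Cox7b2, a testis form of subunit VIIb, read -2.98 and -4.57 against -5.30 and -4.70 (-1.23; adjusted p = 0.217), near the lowest level counted as well above background on these arrays, -5.36 to -4.87.

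Ndufa4l2 had the smallest p of all members in untreated against normal kidney. It is a relative of Ndufa4 known to be induced by hypoxia-inducible factor. Its brightest probe (chr10:126954149-126954208, mm9) read -0.95 and -1.0 in normal mice, -0.29 and -0.08 in untreated mice, -0.10 and -0.37 with control miRNA, and -0.80 and -0.56 with the mimic. The 4 untreated and control-miRNA values were highest, mimic values lay between, and normal values were lowest. Untreated exceeded normal by 0.79 (SE 0.157, 1.73-fold; limma adjusted p = 0.0523), and control miRNA by 0.74 (adjusted p = 0.0747). The mimic lay 0.44 below control miRNA (unadjusted p = 0.0286, adjusted p = 0.469), the only member at an unadjusted p under 0.05 in that comparison. The untreated difference passed under 8 of the alternatives, with adjusted p from 0.0228 to 0.0499. A second, dimmer probe, above background on 6 arrays, gave -0.43 for the same comparison, so the probes disagree in sign.

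**Figure D4:**
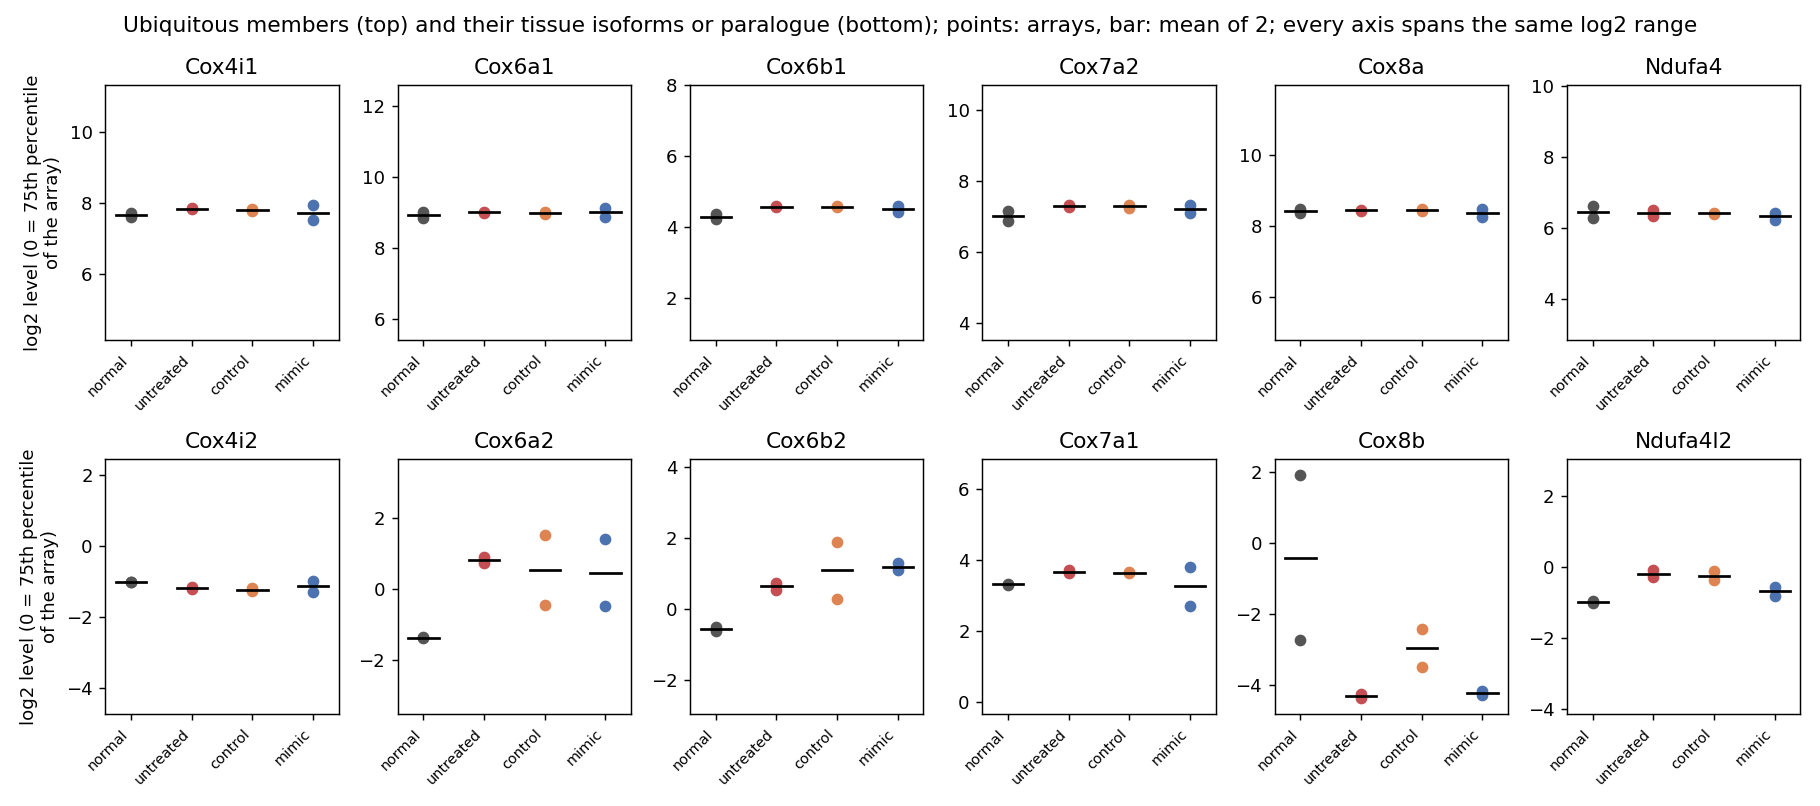
Log2 levels of 6 ubiquitous members (top) and their tissue isoform or relative (bottom) in the 4 groups; points are arrays, bars are means of 2, and each axis spans the same log2 range around its own midpoint. Cox6a2 and Cox6b2 are lowest in normal mice, Cox8b is high in normal replicate 1 (1.90) and Cox7a1 is low in mimic replicate 1 (2.71).

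The comparisons of nanoparticle groups with normal kidney share the normal arrays with the comparison above, so their values are given side by side. Medians over the subunits were 0.19 for untreated, 0.16 for control miRNA and 0.11 for the mimic, against -0.04, -0.04 and -0.09 over all genes. Differences were above 0 for 83, 78 and 66 members (background 45.5%, 45.5% and 42.1%). Among 93 members 0 passed with control miRNA (background 1.87%) and 0 with the mimic (background 8.98%). At an unadjusted p under 0.05 there were 12 members with control miRNA (12.9%, background 21.7%) and 8 with the mimic (8.6%, background 30.3%). All 12 were higher, which is 12.9% of members against 8.53% of all genes. With the mimic 7 of the 8 were higher, which is 7.53% of members against 10.7% of all genes. Arrays did not overlap, with db/db higher, for 50 members with control miRNA (background 26.2%) and 29 with the mimic (background 21.6%), and with db/db lower for 2 (background 32.8%) and 1 (background 32.2%). After quantile normalization the mimic median against normal kidney was -0.0430, with 36 members above 0, so its direction depends on the scaling. The assembly factor Ndufaf5 had the smallest adjusted p there, 0.0557, at 0.56 above normal; it read 0.56 and 0.71 in normal mice and 1.32 and 1.07 with the mimic. Its second probe gave -0.26 in untreated minus normal kidney, where the first gave 0.43.

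No respiratory chain gene passed between mimic and control miRNA, where 0 of 22368 genes passed by limma (background 0%) and 2082 had an unadjusted p under 0.05. At an unadjusted p under 0.05 there was 1 member, Ndufa4l2, or 1.08%, against 9.31% of all genes. The subunit median was -0.06, against -0.04 over all genes, and 21 of 93 members were above 0, against 43.2%. Both mimic arrays lay below both control-miRNA arrays for 8 members (8.6%, background 22.9%), among them Ndufc2, Uqcrfs1 and Atp5j, and above for 2, Ndufaf5 and Cox7a2l (background 16.5%). The extreme values by complex were small outside complex IV. Ndufaf5 (0.17) and Ndufc2 (-0.19) bounded complex I, Sdhc (0.04) and Sdha (-0.17) complex II, and Uqcrc1 (0.04) and Uqcrfs1 (-0.13) complex III. In complex V they were Atp5e (0.11) and the associated factor Atp5s (-0.34), and in complex IV Cox7a2l (0.11) and Cox8b (-1.27). Their adjusted p ran from 0.615 upward.

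Intervals bound what these arrays could have missed. For the mimic against control miRNA, the 95% interval ran from -0.38 to 0.26 for Cox5b, from -0.44 to 0.16 for Ndufa11, from -0.58 to 0.23 for Sdha, from -0.36 to 0.44 for Uqcrc1 and from -0.47 to 0.33 for Atp5a1. A 2-fold difference lies outside each of these 5 intervals, and a fall of 0.19, the size of the untreated median, lies inside each. For some tissue isoforms a 2-fold difference lies inside the interval. These ran from -1.98 to 1.83 for Cox6a2, from -1.05 to 1.26 for Cox6b2 and from -1.19 to 0.42 for Cox7a1. Those of Cox7b2 and Cox8b ran from -1.94 to 0.61 and from -4.55 to 2.01. The mimic against untreated mice gave a median of -0.08, with 21 members above 0 (background 43.5%) and 2 members (background 13.9%) at an unadjusted p under 0.05, Ndufa4l2 and Atp5s. Control miRNA against untreated mice gave -0.02, with 28 members above 0 (background 48.1%) and 0 at that p (background 3.24%). In both, 0 of 22368 genes passed by limma.

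The mimic replicates differed. Mimic replicate 1 lay below mimic replicate 2 for 84 of 93 members (background 56.4%) and was the lowest of the 6 db/db arrays for 73 (background 41%). Without it the mimic median against control miRNA was 0.0437, and without mimic replicate 2 it was -0.158. Exceptions with the higher value on replicate 1 included Ndufa7, Ndufb3, Ndufs7 and Cox6b2. The catalytic subunits of complex II, Sdha and Sdhb, had a median deviation of -0.36 on that array. The proximal tubule markers were also low there: their median deviation was -0.81 on mimic replicate 1 and 0.19 on mimic replicate 2. Their summed level was 568 against 915 to 1043 on the other 7 arrays. Slc22a6 of that list went the other way, at 6.77 and 6.40. Collecting duct and thick ascending limb markers had median deviations of -0.82 and -0.33 on mimic replicate 1. The summed thick ascending limb level was 220 there, within the 196 to 233 of the other db/db arrays. Umod of that list went the other way, at 7.53 and 7.36 on mimic replicates 1 and 2. Podocyte and intercalated cell markers were at 0.52 and 0.29 on that array. Nphs1 of the podocyte list went the other way, at -0.30 and 0.25 on mimic replicates 1 and 2. So did Slc4a1 of the intercalated cell list, at 0.60 and 1.39. Summed distal convoluted tubule markers were 46.2 there against 101 to 144 on the other db/db arrays, and macrophage markers 12.1 against 6.91 to 7.98. Summed red-cell markers were 172 on mimic replicate 1 and 6.09 on mimic replicate 2, against 57.4 to 129 on the other db/db arrays, so both mimic arrays lay outside that range. The part of these markers in the subunit values was not tested.

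For 32 member genes a second probe lay well above background on all 8 arrays, which gives another reading of the same gene on the same RNA. In untreated minus normal kidney 28 of the 32 pairs had the same sign, with medians of 0.19 for the brightest and 0.25 for the second probe. The largest positive gap was that of Atp5a1, at 0.19 and 0.85. Sdhb gave 0.13 and 0.52, Ndufv1 0.05 and 0.37, and Atp5b -0.06 and 0.26. Opposite signs were also seen for Atp5j2 (0.24 and -0.58), Ndufs1 (0.08 and -0.45) and Ndufaf5. The second probes of Atp5j2, Ndufs1 and Ndufaf5 had mean levels of -3.01, -4.29 and -1.25, while their brightest probes had 6.66, 5.67 and 0.98. The probes differed by over 0.3 for 8 genes.

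**Figure D5:**
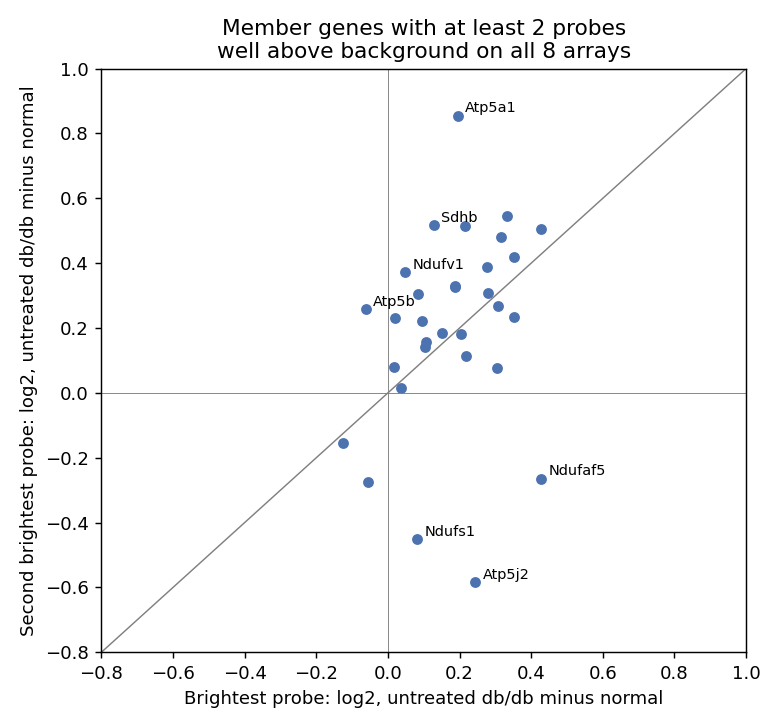
Difference of untreated db/db minus normal kidney (log2) by the second brightest probe (vertical) against the brightest probe (horizontal) for 31 member genes; the line marks equal values. Of these, 27 lie in the quadrants of equal sign, and the 7 labelled genes differ by more than 0.3 between probes.

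Lists of related genes gave a setting for the subunits, and 0 genes of these lists passed in untreated against normal kidney or in mimic against control miRNA. Of 18 subunits and associated proteins outside the name rule, 5 were tested, with an untreated median of 0.22. No values are given here for the genes of mitochondrial DNA, which the list also holds. Cyc1, the cytochrome of complex III, differed by 0.22, and 2010107E04Rik, an ATP synthase subunit, by 0.43 (adjusted p = 0.102). The 34 assembly factors had a median of 0.07, led by Uqcc2, a complex III factor (0.46; adjusted p = 0.101). Among 18 genes of the citric acid cycle, pyruvate dehydrogenase and pyruvate carboxylase, 17 were above 0 (background 45.5%), with a median of 0.13. Idh3b, a subunit of isocitrate dehydrogenase, differed by 0.49 (adjusted p = 0.0915).

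The 18 regulators of mitochondrial biogenesis had a median of 0.04. Ppargc1a, the coactivator of the programme, read 3.03 and 2.81 in normal mice, 3.14 and 2.96 in untreated mice, 2.92 and 3.09 with control miRNA, and 2.68 and 2.93 with the mimic, and these groups overlap. Esrrg, a nuclear receptor, had the smallest p of the list (0.37; adjusted p = 0.168). The 19 electron transfer genes had a median of 0.11, and Gpd2, which feeds electrons from glycerol phosphate to quinone, read 1.10 and 1.21 in normal mice against 0.32 and 0.43 in untreated mice (-0.78; adjusted p = 0.0581). The 10 protease and antioxidant genes had a median of -0.02, with the chaperonin Hspd1 at -0.43 (adjusted p = 0.0908). In mimic minus control miRNA the smallest p of each list belonged to Atpif1 (0.22), Coa7 (-0.49), Pprc1 (0.70), Suclg2 (0.17), Coq3 (0.22) and Hspe1 (0.16), with adjusted p from 0.502 to 0.712.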

How the data were processed

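Scanner files of Agilent 1-colour arrays were used. Per the file headers, the deposited intensity of each spot is the Cy3 signal after background subtraction and detrending by Agilent Feature Extraction 12.0.3.1 (version per the submitters' processing notes). The authors' deposited series table holds a linear ratio to each probe's median over the 8 arrays, a scale found from its values (r of 0.9995 to 0.9999 with rescaled intensities; column medians 0.971 to 1.08); centring was per probe and direction rises with expression. It served as an alternative.

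Intensities were averaged per probe, divided by the array's 75th percentile and put on the log2 scale; 4 probes with outlier spots were dropped. The filter on dim probes asked for the scanner's well-above-background flag on each array of 1 group or more, which left 33639 probes. Names followed RefSeq of GRCm38.p6: 33767 probes by accession, 9866 by symbol, 310 by synonym, and 12662 kept the array's name; members are printed under the array's name. Probe positions are the array annotation's, on mm9. Differences came from limma 3.58.1 in R 4.3.3 (lmFit, eBayes; 1 mean per group, 8 arrays, 4 residual and 2.23 prior degrees of freedom), tested on simulated data. The labels number the samples of a group and say no more of their source, so p-values measure the spread between these samples, which may be technical. The number of arrays limits precision.

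Members and lists were chosen with earlier results of these data known. Genes were named if they passed, if they were the highest or lowest of a complex in untreated against normal or mimic against control miRNA, if they were listed isoforms or core subunits, or if they passed or had the smallest p of a related list; 1 member is not reported here by name. Ndufa5 and the other subunits outside this rule, Cyc1, Ppargc1a and second-probe cases were chosen after their values were seen. Alternatives were normexp background correction, quantile normalization, other probe filters, the mean of probes, each probe alone, a trended robust prior, the deposited table, a replicate block, the 4 arrays compared, and leaving out each array; the list of members called without mimic replicate 1 and the second probes were added after seeing the data.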

Additional observations from a re-analysis of the deposited data

How the results depend on the processing

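The count of passing members was 0 in all 6 comparisons. In untreated against normal kidney the count was 2 after normexp background correction (Ndufa11, Ndufa4l2), 3 in the fit to the 4 arrays compared (Cox6a2, Cox6b2, Ndufa4l2), and 1 after quantile normalization, with probes above background on all 8 arrays, with a trended robust prior and for probes alone (Ndufa4l2 each time). It ran from 0 to 3 over the fits that left out 1 array, and the median of 0.19 from 0.0847 to 0.267. In control-miRNA against normal kidney the count was 2 after normexp (Ndufa11, Ndufa4l2) and 0 to 3 without 1 array, with a median of 0.0850 to 0.249. In mimic against normal kidney it was 2 after normexp (Ndufa11, Ndufaf5), 1 on all 8 arrays only, 1 with the robust prior and 1 in the deposited table (Ndufaf5), and 0 to 2 without 1 array, with a median of 0.0130 to 0.213; quantile normalization gave -0.0430. Cox7a1 passed without mimic replicate 2 in all 3 mimic comparisons, with mimic replicate 1 then alone. Quantile normalization gave -0.205 in mimic against untreated and -0.184 in mimic against control miRNA. Without 1 array these medians ran from -0.182 to 0.0243 and from -0.158 to 0.0437, and the counts from 0 to 2 and from 0 to 1. A lone array was assumed to vary like the other groups. The cause of these changes was not tested.

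Of 791 values of named genes under an alternative, 744 kept direction and side of the threshold, 16 passed where the reported value did not, and 31 turned sign; all 31 had a reported size under 0.2. After quantile normalization the untreated values of Cox7a2l, Ndufv1, Uqcrfs1 and Atp5b were -0.00151, -0.0341, -0.0413 and 0.162, and the mimic values against control miRNA of Sdhc, Uqcrc1, Cox7a2l and Atp5e were -0.0184, -0.0902, -0.0216 and -0.0647. The mean of probes gave -0.185 for Ndufs1 and 0.165 for Atp5b, and Sdhc was 0.0305 after normexp and 0.0182 in the deposited table. Without 1 array the untreated ranges were -0.0165 to 0.145 for Cox6a1, -0.0435 to 0.138 for Cox7a2l, -0.0374 to 0.0752 for Cox8a, -0.00123 to 0.206 for Atp5g3, -0.210 to 0.126 for Ndufa4, -0.0187 to 0.114 for Ndufv1, -0.0446 to 0.209 for Ndufs1, -0.0669 to 0.133 for Uqcrfs1, -0.0784 to 0.290 for Uqcrc1, -0.336 to 0.0863 for Ndufaf6 and -0.0790 to 0.0374 for Sdhc. In mimic against control miRNA they were -0.0353 to 0.120 for Sdhc, -0.398 to 0.0515 for Sdha and -0.0778 to 0.158 for Uqcrc1.

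The replicate block left the count at 0 and the median at 0.19 in untreated against normal kidney. Same-numbered arrays correlated at -0.02 to 0.16 in their deviations. The labels do not state a pairing, and these low values cannot exclude one.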
